A study of Homo sapiens with 12 samples.

Results

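The enzymes described here make, salvage or clear the deoxynucleotides from which DNA is built. They are 9 genes taken by symbol: RRM1, RRM2, TYMS, TK1, DTYMK, DUT, DCK, DCTD and SAMHD1. They are 9 of the 25787 entries with a gene symbol in the deposited table, and all 9 were among the 14225 named entries that entered the tests, which required a mean of 10 or more across the 12 libraries. RNA was sequenced from TC-71 cells, an established line of Ewing sarcoma with the EWS-FLI1 fusion protein, in 4 groups of 3 libraries. Cells labelled WT received either the vehicle DMSO or YK-4-279, a compound meant to keep EWS-FLI1 from binding the RNA helicase DHX9, for 16 hours at a dose labelled 2 mM. The other groups were transfected with a scrambled control or against DHX9 (siDHX9) by reverse transfection in 2 pulses and collected at 48 hours. The labels name siRNAs and the series' design names shRNAs, and neither source gives their sequences. All groups are 1 cell line, so each p-value measures the spread between cultures of that line.

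Ribonucleotide reductase, built from the large subunit RRM1 and the small subunit RRM2, turns ribonucleotides into deoxynucleotides, and RRM2 is made mainly in S phase. Thymidine nucleotides come either from deoxyuridylate through thymidylate synthase (TYMS), which is fed by DCTD and DUT, or by salvage through TK1. DTYMK serves both routes, DCK salvages deoxycytidine and purine deoxynucleosides, and SAMHD1 breaks deoxynucleotides down. Ewing sarcoma lines are known to be sensitive to inhibition of ribonucleotide reductase.

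The promoters of the 4 members that passed the test in at least 1 of the treatment comparisons are shown because the levels of such genes are known to be controlled there by E2F factors, by NF-Y at CCAAT boxes and by the DREAM complex at CHR elements. Each run is a RefSeq window on GRCh38.p14 from 250 bases before to 50 bases after an annotated start, 5′ to 3′ on the plus strand, with letters of a searched motif in capitals. All 9 members were matched to windows, and the sequences are from RefSeq.
RRM2, chr2:10122489-10122788, plus strand: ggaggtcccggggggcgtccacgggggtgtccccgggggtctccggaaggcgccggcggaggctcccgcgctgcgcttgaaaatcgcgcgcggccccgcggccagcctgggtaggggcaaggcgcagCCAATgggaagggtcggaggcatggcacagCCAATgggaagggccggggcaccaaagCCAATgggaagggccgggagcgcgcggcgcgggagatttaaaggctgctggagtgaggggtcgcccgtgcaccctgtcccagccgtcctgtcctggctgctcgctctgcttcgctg
RRM1, chr11:4094435-4094734, plus strand: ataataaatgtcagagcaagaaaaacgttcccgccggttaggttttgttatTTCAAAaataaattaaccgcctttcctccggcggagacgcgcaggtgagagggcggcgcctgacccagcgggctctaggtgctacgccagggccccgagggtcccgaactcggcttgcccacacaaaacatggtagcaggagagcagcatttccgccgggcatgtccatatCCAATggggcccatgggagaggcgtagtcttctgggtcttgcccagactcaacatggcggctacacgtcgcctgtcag
TYMS, chr18:657403-657702, plus strand: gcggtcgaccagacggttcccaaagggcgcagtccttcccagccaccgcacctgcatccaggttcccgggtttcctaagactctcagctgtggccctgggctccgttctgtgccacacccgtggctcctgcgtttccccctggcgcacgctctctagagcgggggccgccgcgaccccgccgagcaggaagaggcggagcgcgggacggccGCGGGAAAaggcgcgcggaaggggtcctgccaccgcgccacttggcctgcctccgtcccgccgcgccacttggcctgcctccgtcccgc
DUT, 1 of its 4 windows, chr15:48331947-48332246, plus strand: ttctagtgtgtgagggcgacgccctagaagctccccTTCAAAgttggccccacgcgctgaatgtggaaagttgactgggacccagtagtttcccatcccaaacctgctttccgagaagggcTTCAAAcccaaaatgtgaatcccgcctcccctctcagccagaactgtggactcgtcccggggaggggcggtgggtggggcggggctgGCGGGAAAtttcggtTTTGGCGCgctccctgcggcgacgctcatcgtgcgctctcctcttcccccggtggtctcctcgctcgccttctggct

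The letters searched were TTTCCCGC, TTTGGCGC, TTTCGCGC and TTTGCCGC for E2F, CCAAT, and TTTGAA and TTCGAA for CHR, each on both strands. RRM2 carried CCAAT at 3 places in the window shown, starting 123, 93 and 66 bases before the annotated start, and no E2F or CHR letters. Another window of RRM2, not shown, carried CCAAT at 1 place and no E2F or CHR letters. RRM1 carried CCAAT once, and TTTGAA once on the minus strand. TYMS carried the E2F letters once, 39 bases before its start, on the minus strand. DUT carried E2F letters at 2 places, starting 42 and 27 bases before the annotated start of that window, and TTTGAA on the minus strand at 2 places. The other DUT windows, not shown, carried none of the searched letters. Over all members, E2F letters stood in a window of 3 of 9 genes (TYMS, DUT and DCK), CCAAT in 5 of 9 (RRM1, RRM2, TK1, DTYMK and SAMHD1) and CHR letters in 3 of 9 (RRM1, DTYMK and DUT). Over all 27305 genes with windows, 3.99%, 39.7% and 19.5% had them, and over the 35116 windows 3.31%, 34.6% and 16.4%. A match is a description of letters in these windows, not a binding site, and binding was not measured.

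The 12 libraries held 38.6 to 65.5 reads each in units of 1e6, and this whole span lies within the DMSO group. Values are read counts divided by size factors by the authors, called normalised counts here. They are not divided by gene length, so levels are not compared between genes. DHX9, which shares an entry with its neighbour NPL, was at 30287, 33422 and 34357 in scrambled and at 19342, 21178 and 21304 in siDHX9, 1.59-fold lower (limma adjusted p = 4.54e-05). All 9 Ewing sarcoma markers had group means of at least 10, with sums of 74080 to 91299 per library, while sums over 5 leukocyte markers were 8.95 to 68.5 and over 3 endothelial markers 0 to 12.8. Sums over 5 epithelial markers were 241 to 298 in DMSO and 334 to 422 in the other groups. Sums over 7 fibroblast markers were 2026 to 2733 in DMSO, YK-4-279 and scrambled and 2795 to 3231 in siDHX9, and the part of these markers in the results was not tested. Scrambled libraries 1 and 2 stood apart: CHAC1, a gene of the amino acid and unfolded protein stress response, was at 5052 and 8311 there, at 720 in scrambled 3 and at 131 to 566 in the other 9 libraries. Over all genes, siDHX9 2 was the library farthest from its group, with a chi-square per degree of freedom of 65.7 and 92.8 against the other siDHX9 libraries, where all other replicate pairs had 6.96 to 41.5. Calls and counts of these comparisons are therefore also given without scrambled 1 and 2, and without siDHX9 2 where that changes them. Ribosomal RNA took 8.79% ± 1.07 (SD, n = 3) of reads with YK-4-279, 5.19% ± 0.244 in DMSO, 4.09% ± 0.963 in scrambled and 2.71% ± 0.916 in siDHX9. This share moved with the groups, and its part in the results was not tested.

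RRM2, the small subunit of ribonucleotide reductase (GSHG0016250, hg19 chromosome 2, 10262695 to 10271546), showed the largest fall of the 9 enzymes with YK-4-279. Its normalised counts were 39584, 39229 and 40241 in DMSO and 23348, 24287 and 23874 with YK-4-279. They were 31067, 31589 and 36830 in scrambled and 36407, 34761 and 36104 in siDHX9. Every YK-4-279 library was below every other library. In siDHX9 the values lay within the range of scrambled, which was itself spread by scrambled 3. RRM2 fell 1.66-fold with YK-4-279 (log2 difference of -0.74 ± 0.07 SE, limma adjusted p = 2.32e-05). The siDHX9 difference was 0.11 ± 0.07 on the log2 scale (adjusted p = 0.268, limma), -0.04 without scrambled libraries 1 and 2, and 0.19 without scrambled 3, where it passed the test (limma adjusted p = 0.0371). The 2 effects differed by -0.85 ± 0.10 on the log2 scale (limma adjusted p = 0.00022), and by -0.69 without those libraries (limma adjusted p = 0.00417).

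RRM1, the large catalytic subunit, is counted in an entry that also names LOC100506082 (GSHG0004560, hg19 chromosome 11, 4115915 to 4223883). Its normalised counts were 11028, 10342 and 10746 in DMSO against 7587, 7445 and 7635 with YK-4-279. They were 10383, 10886 and 10701 in scrambled against 8349, 9770.5 and 9006 in siDHX9. Both treated groups lay wholly below their own controls, and YK-4-279 also lay below siDHX9. RRM1 fell 1.42-fold with YK-4-279 (log2 -0.50 ± 0.07, limma adjusted p = 0.000476). It fell 1.18-fold with siDHX9 (log2 -0.24 ± 0.07, limma adjusted p = 0.0301). That second call was lost without scrambled 1 (limma adjusted p = 0.0579), scrambled 2 (0.0774), siDHX9 1 (0.117) or siDHX9 3 (0.0554), and without both scrambled 1 and 2 (0.193). The siDHX9 call was also lost in the fit of the 6 transfected libraries alone. The difference between the 2 effects was -0.26 ± 0.10 (log2) and did not pass the test (limma adjusted p = 0.0997).

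The ratio of RRM2 to RRM1 within a library does not depend on how libraries were scaled. It was 3.71 ± 0.106 (SD, n = 3) in DMSO, 3.16 ± 0.0956 with YK-4-279, 3.11 ± 0.289 in scrambled and 3.98 ± 0.403 in siDHX9. On the log2 scale the ratio was lower by -0.23 with YK-4-279 and higher by 0.35 with siDHX9. Each of these had p = 0.1 in a two-sided exact permutation test, the smallest that 3 against 3 libraries allow, and 0.15 after Benjamini-Hochberg adjustment over 9 ratio tests. RRM2B, the small subunit induced by p53 that works outside S phase, was low, at 42.7 ± 12.7 in DMSO, 53.4 ± 20.3 with YK-4-279, 95.3 ± 44.99 in scrambled and 53.8 ± 13.9 in siDHX9. Its YK-4-279 difference was 0.29 on the log2 scale (limma adjusted p = 0.655) and its siDHX9 difference -0.72 (0.208). The ratio of RRM2 to RRM2B was 1002 ± 367 in DMSO and 496 ± 201 with YK-4-279, a log2 difference of -1.03 (exact permutation p = 0.1, adjusted 0.15). It was 316, 228 and 753 in scrambled, lower than DMSO by -1.34 on the log2 scale (exact permutation p = 0.1, adjusted 0.15). It was 704, 507 and 879 in siDHX9, 0.84 above scrambled (exact permutation p = 0.3, adjusted 0.386). Scrambled 3 was the high library of its group here and in the RRM2 to RRM1 ratio, where it was at 3.44 against 2.99 and 2.90.

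**Figure D1:**
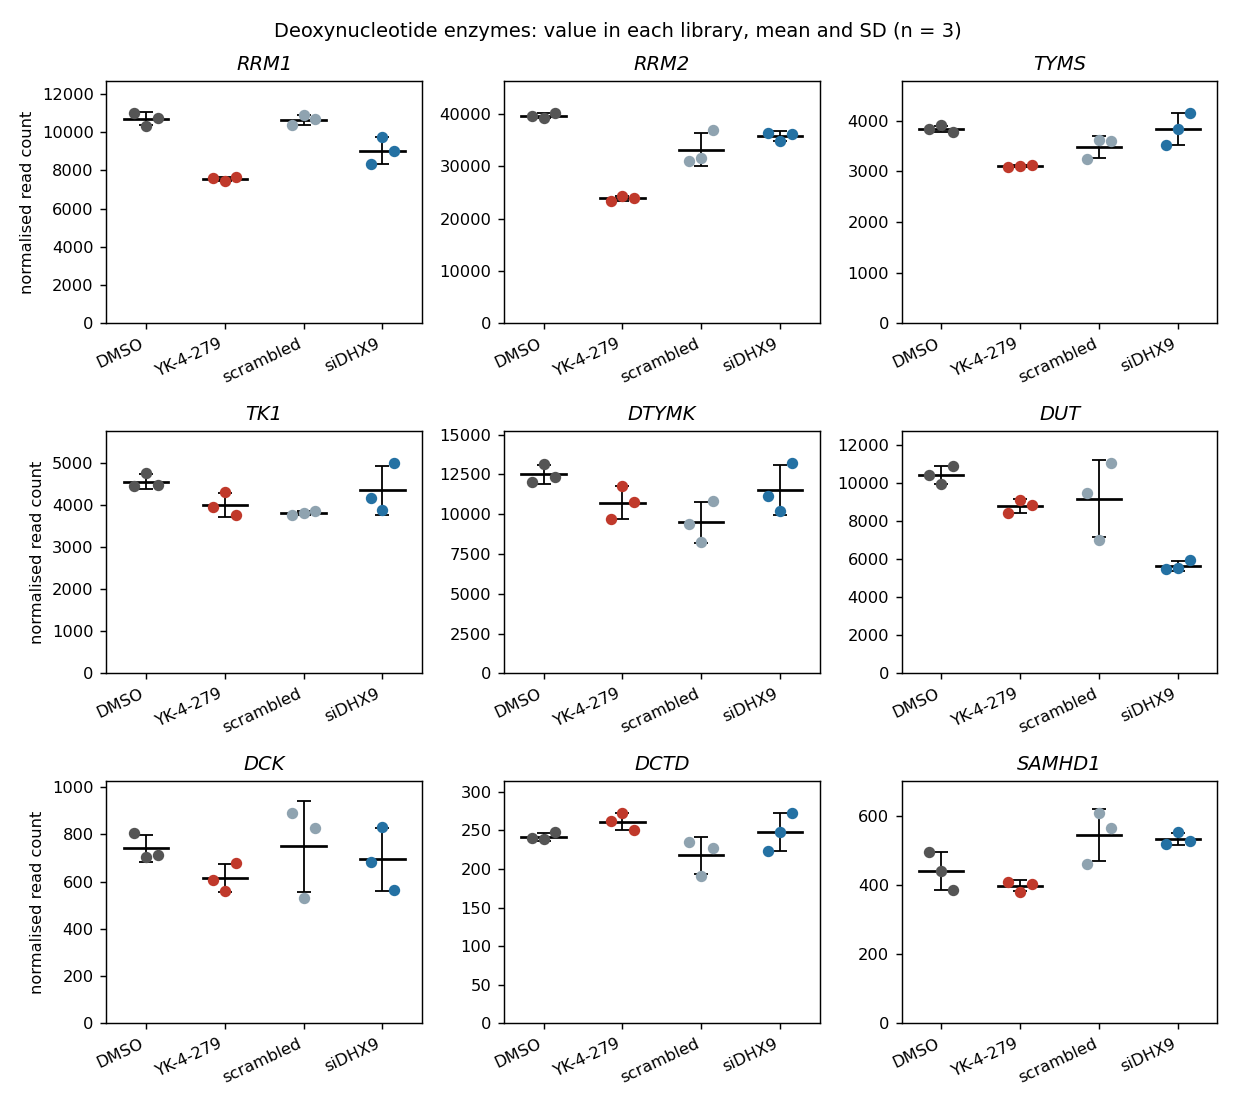
Normalised counts of the 9 enzymes in each of the 12 libraries. Each panel is 1 gene with its own vertical axis starting at 0, the groups are on the horizontal axis, points are libraries and bars are group means with SD. RRM2 and RRM1 were lowest with YK-4-279 and DUT was lowest in siDHX9, each without overlap with any other group.

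TYMS, which makes thymidylate from deoxyuridylate (GSHG0013869, hg19 chromosome 18, 657584 to 673575), was lowest with YK-4-279. Its normalised counts were 3830, 3912 and 3787 in DMSO and 3088, 3097 and 3130 with YK-4-279. They were 3240, 3622 and 3605 in scrambled and 3513, 3840 and 4161 in siDHX9. YK-4-279 lay below every other library, and siDHX9 overlapped its control. TYMS fell 1.24-fold with YK-4-279 (log2 -0.31 ± 0.08, limma adjusted p = 0.0190), a call lost when any 1 of the 6 DMSO and YK-4-279 libraries was left out (adjusted p = 0.0517 to 0.0748). The siDHX9 difference was 0.14 ± 0.08 (limma adjusted p = 0.235). The 2 effects differed by -0.44 ± 0.11 on the log2 scale (limma adjusted p = 0.0222), and this call was lost without scrambled 1 and 2 (0.116) and without any 1 of DMSO 2, YK-4-279 1, YK-4-279 3 or scrambled 1 (0.0522 to 0.0636). Overlapping ends of TYMSOS and ENOSF1 lie on the same stretch, and no source used here says if counting was strand-specific. Because of this overlap, reads of TYMS and ENOSF1 may not be fully separate, and this was not tested. ENOSF1 was at 987 ± 46.2 in DMSO and 777 ± 34.5 with YK-4-279 (log2 -0.35, limma adjusted p = 0.0352).

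DUT, the enzyme that clears dUTP and yields the substrate of TYMS (GSHG0009853, hg19 chromosome 15, 48623292 to 48635570), was the member with the largest siDHX9 difference. Its normalised counts were 9452, 7022 and 11065 in scrambled and 5469, 5519 and 5959 in siDHX9. In DMSO they were 10443, 9928 and 10868, and with YK-4-279 8421, 9112 and 8867. All siDHX9 libraries were below all other libraries, and scrambled 2 was the low library of its group. DUT fell 1.6-fold with siDHX9 (log2 -0.68 ± 0.12, limma adjusted p = 0.00297). The fall was 1.96-fold without scrambled 1 and 2 (limma adjusted p = 0.000319). With YK-4-279 the difference was -0.24 ± 0.12 (limma adjusted p = 0.204), although the 3 YK-4-279 libraries did not overlap DMSO. The adjusted p of that difference was 0.0305 in limma without scrambled 1 and 2, and 0.00355 in a limma fit of the 6 DMSO and YK-4-279 libraries alone. The difference between the effects was 0.43 ± 0.17 (limma adjusted p = 0.128), and 0.73 without scrambled 1 and 2 (limma adjusted p = 0.00856). For DUT, leaving out those 2 libraries thus added a call in both comparisons.

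DCTD, which deaminates deoxycytidylate to deoxyuridylate (GSHG0023672, hg19 chromosome 4, 183811244 to 183838630), passed no test between treatments. It was at 239, 238 and 248 in DMSO, 262, 272 and 249.8 with YK-4-279, 235, 190.5 and 226 in scrambled and 223, 248 and 272 in siDHX9. YK-4-279 lay just above DMSO without overlap, and the 2 transfected groups overlapped. The log2 differences were 0.11 ± 0.13 with YK-4-279 (limma adjusted p = 0.599) and 0.19 ± 0.13 with siDHX9 (0.309). An entry of ING2 overlaps DCTD, so its values are uncertain where reads were shared.

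TK1, the S phase thymidine kinase (GSHG0013770, hg19 chromosome 17, 76170160 to 76183285), was at 4441, 4748 and 4471 in DMSO and 3938, 4309 and 3755 with YK-4-279. It was at 3758, 3803 and 3866 in scrambled and 4163, 3879 and 4999.7 in siDHX9. Each treated group was separate from its own control, below it with YK-4-279 and above it with siDHX9, but neither difference passed the test. The log2 differences were -0.19 ± 0.09 (limma adjusted p = 0.185) and 0.18 ± 0.09 (limma adjusted p = 0.178), and without siDHX9 2 the second passed at 0.26 (0.0394). TK2, the mitochondrial thymidine kinase, was at group means of 69.0 to 85.9. The TK1 to TK2 ratio was 66.1 ± 4.27 in DMSO, 50.7 ± 4.03 with YK-4-279, 53.5 ± 22.3 in scrambled and 51.4 ± 10.4 in siDHX9. Its log2 difference was -0.38 with YK-4-279 (exact permutation p = 0.1, adjusted 0.15) and -0.0039 with siDHX9 (exact permutation p = 1).

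DTYMK, the thymidylate kinase that both routes need (GSHG0018481, hg19 chromosome 2, 242615157 to 242626383), was at 11995, 13177 and 12346 in DMSO and 9664, 11739 and 10758 with YK-4-279. It was at 9365, 8220.0 and 10846 in scrambled and 11159, 10168 and 13230 in siDHX9. DMSO lay above both YK-4-279 and scrambled, while siDHX9 overlapped its control. The log2 differences were -0.23 ± 0.11 with YK-4-279 (limma adjusted p = 0.201) and 0.28 ± 0.11 with siDHX9 (0.0985). The siDHX9 difference passed without scrambled 3 (0.38, limma adjusted p = 0.0348) or without siDHX9 2 (0.37, 0.0242), and was 0.08 without scrambled 1 and 2 (0.821).

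DCK, the salvage kinase for deoxycytidine (GSHG0022648, hg19 chromosome 4, 71859265 to 71896627), was at 807, 705 and 711 in DMSO, 607, 560.0 and 680.0 with YK-4-279, 891, 529 and 829 in scrambled and 685, 832 and 564 in siDHX9. YK-4-279 lay below DMSO without overlap, the transfected groups overlapped, and scrambled 2 was again the low library. The log2 differences were -0.27 ± 0.18 with YK-4-279 (limma adjusted p = 0.347) and -0.09 ± 0.18 with siDHX9 (0.752). DGUOK, the mitochondrial purine salvage kinase, was at 6602 ± 55.8 in DMSO and 6976 ± 542 with YK-4-279 (log2 0.08, limma adjusted p = 0.628). CDA, which deaminates cytidine and deoxycytidine, was at 57.6 ± 9.23 and 84.1 ± 14.8 (log2 0.53, limma adjusted p = 0.117).

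SAMHD1, which breaks deoxynucleoside triphosphates down (GSHG0019164, hg19 chromosome 20, 35520227 to 35580246), was at 497, 443 and 388 in DMSO and 411, 382 and 405 with YK-4-279. It was at 463, 610.3 and 566 in scrambled and 521, 555 and 527 in siDHX9. Neither treated group was separate from its control. The log2 differences were -0.14 ± 0.12 with YK-4-279 (limma adjusted p = 0.475) and -0.02 ± 0.12 with siDHX9 (0.92). Both transfected groups had higher means than both 16-hour groups, at 546 ± 75.3 and 535 ± 18.1 against 443 ± 54.5 in DMSO and 399 ± 15.2 with YK-4-279.

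Counted over the 9 enzymes, 3 fell with YK-4-279 (RRM1, RRM2 and TYMS) and 0 rose, by limma, edgeR and DESeq2 alike and at an unadjusted limma p under 0.05. The background was 6.49% of the 14225 genes lower and 7.33% higher in limma. Of the same genes edgeR called 1059 lower and 939 higher, and DESeq2 1272 lower and 1267 higher. In 7 of 9 enzymes all YK-4-279 libraries lay below all DMSO libraries, against 20.4% of all genes, and in 1, DCTD, they lay above, against 23.2%. The median log2 difference of the 9 was -0.24, beside 0.02 over all genes. In the fit of the 6 DMSO and YK-4-279 libraries alone, 6 of the 9 were lower by limma, the others being TK1 (adjusted p = 0.0333), DTYMK (0.0215) and DUT, and 0 were higher. In that fit 13.7% of all genes were lower and 16.3% higher. In bulk RNA, fewer cells in S phase and less RNA of these genes per cell cannot be told apart.

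With siDHX9, 2 of the 9 fell (RRM1 and DUT) and 0 rose by limma, edgeR and DESeq2, and 1 rose at an unadjusted limma p under 0.05 (DTYMK). The background was 7.97% of genes lower and 8.75% higher in limma. Over all genes edgeR called 1248 lower and 1267 higher, and DESeq2 1637 lower and 1558 higher. The libraries did not overlap in 2 enzymes that were lower, against 14.4% of genes, and in 1 that was higher (TK1), against 14.9%. The median of the 9 was 0.11, beside -0.00 over all genes. In the fit of the 6 transfected libraries alone, DUT was called lower, RRM1 was not called, and 0 enzymes rose. That fit called 198 of the 14225 genes lower and 294 higher. Without scrambled 1 and 2, DUT alone was called, and the differences of TYMS (0.09), TK1 (0.16), DCTD (0.13), DCK (-0.27) and SAMHD1 (-0.08) had limma adjusted p-values of 0.497 to 0.825. Without siDHX9 2, RRM1 and DUT were called lower and TK1 and DTYMK higher. That fit called more genes of all kinds, 1971 of 14225 lower and 2284 higher, beside 1134 and 1244 over all 12 libraries.

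The difference of the 2 effects was called for RRM2 and TYMS, in both with the lower value under YK-4-279, and for 0 enzymes the other way. The background was 5.29% of genes lower and 4.4% higher in limma. At an unadjusted limma p under 0.05 there were 5 lower and 1 higher, edgeR called 3 lower and DESeq2 5 lower, and both called 0 higher. Over all genes edgeR called 855 lower and 618 higher, and DESeq2 1113 lower and 968 higher. The share of all genes at an unadjusted p was not counted. The median difference was -0.26 over the 9 and 0.03 over all genes. Without scrambled 1 and 2, RRM2 was the member called lower and DUT was called higher. Without siDHX9 2, 4 were called lower: RRM2, TYMS, TK1 and DTYMK. Of all 14225 genes, 901 were lower and 772 higher in that fit.

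**Figure D2:**
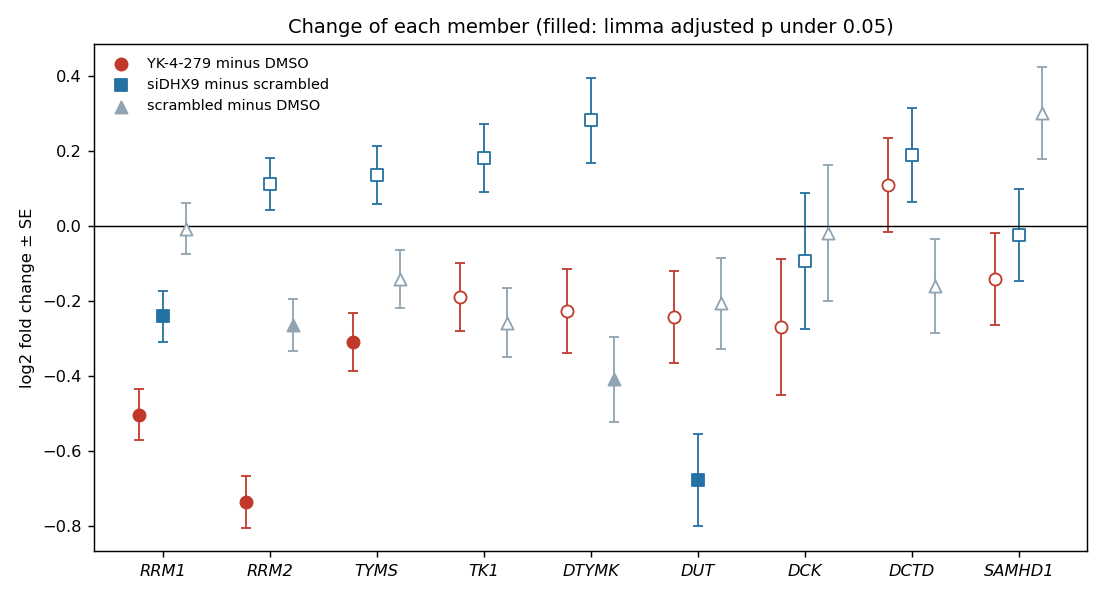
Log2 differences of the 9 enzymes with their standard errors in limma. The horizontal axis lists the genes, the vertical axis is the log2 difference, markers tell the 3 comparisons apart, and filled ones passed the test. RRM2 at -0.74 and RRM1 at -0.50 lie farthest below 0 with YK-4-279, and DUT at -0.68 with siDHX9.

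The control groups themselves differed in 2 enzymes by limma and in 3 by edgeR and DESeq2, which added TK1. They differ in transfection and in time of collection, which cannot be told apart. Against DMSO, scrambled cells were lower in RRM2 (log2 -0.26 ± 0.07, limma adjusted p = 0.0177) and DTYMK (-0.41 ± 0.11, 0.0235), and 0 enzymes were called higher by limma, edgeR or DESeq2, with 1 higher at an unadjusted limma p under 0.05 (SAMHD1). The background was 9.22% of genes lower and 9.7% higher in limma. Over all genes edgeR called 1401 lower and 1375 higher, and DESeq2 1666 lower and 1721 higher. The libraries were separate and lower in 5 of 9 enzymes (18.8% of genes) and separate and higher in 0 of 9 (22% of genes). Without scrambled 1 and 2 there were 0 called, with RRM2 at -0.11 and DTYMK at -0.20. The RRM2 call was also lost without any 1 of the 3 DMSO libraries, scrambled 1 or scrambled 2 (limma adjusted p = 0.0512 to 0.0783), and the DTYMK call without any 1 of DMSO 2, DMSO 3, scrambled 1 or scrambled 2 (0.0627 to 0.102). Without siDHX9 2, TK1 was called as well (limma adjusted p = 0.0302), where 1693 of the 14225 genes were lower and 1792 higher. The YK-4-279 and scrambled differences share the DMSO libraries, so they are set side by side only.

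By group mean, RRM1 ran from DMSO and scrambled, which overlapped, down to siDHX9 and then to YK-4-279, each step without overlap. RRM2 ran from DMSO to siDHX9 and scrambled, which overlapped each other, and then to YK-4-279, and the gap between scrambled and YK-4-279 was 28.1% of the scrambled mean. TYMS in siDHX9 overlapped both DMSO and scrambled, scrambled lay below DMSO without overlap, and YK-4-279 was lowest. DUT overlapped from DMSO through scrambled to YK-4-279 and was 35.8% lower in siDHX9 than in YK-4-279. Neighbouring groups overlapped at every step for TK1, DTYMK and DCK.

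**Figure D3:**
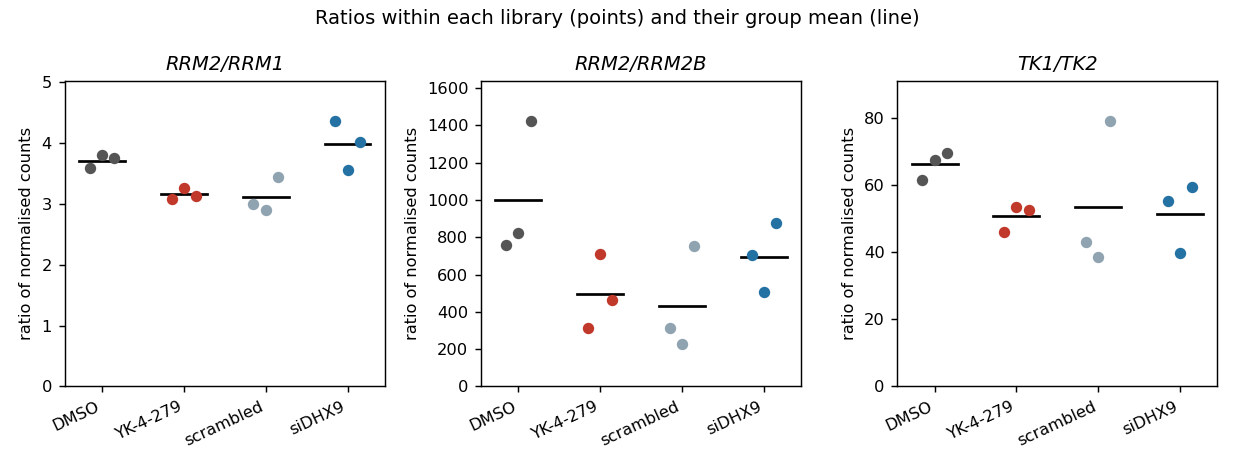
Within-library ratios of RRM2 to RRM1, RRM2 to RRM2B and TK1 to TK2 by group, with 1 point per library and a line at each group mean. The RRM2 to RRM1 ratio averaged 3.71 in DMSO and 3.16 with YK-4-279.

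Other genes of the pathway were counted from lists drawn up for this tissue and treatment. Over all genes, limma called 6.49% lower and 7.33% higher with YK-4-279, and 7.97% lower and 8.75% higher with siDHX9. In the fit of the 6 DMSO and YK-4-279 libraries alone, 13.7% were lower and 16.3% higher. Without siDHX9 2, 1971 of the 14225 genes were lower with siDHX9 and 2284 higher. In the folate cycle, which supplies the one-carbon units that TYMS uses, the mitochondrial enzyme MTHFD2 fell 1.38-fold with YK-4-279 (limma adjusted p = 0.0243) and the cytosolic MTHFD1 1.19-fold (limma adjusted p = 0.0394). With siDHX9, 0 of 13 other deoxynucleotide enzymes were called by limma, while 4 were higher at an unadjusted p under 0.05, edgeR called 1 higher and DESeq2 2 higher, and without siDHX9 2 limma called 4 higher. Of 12 folate cycle genes 2 fell with siDHX9, methionine synthase MTR (1.81-fold) and MTHFD2 (1.56-fold), and 0 of the 12 fell without scrambled 1 and 2.

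The enzymes that build nucleotides from small precursors or break them down were counted in the same way. With YK-4-279, 0 of 16 breakdown and pool-cleaning genes were called by limma, with 2 higher and 3 lower at an unadjusted p under 0.05 and 1 lower by edgeR and by DESeq2. In the fit of the 6 DMSO and YK-4-279 libraries alone, limma called 1 higher and 4 lower. Of 5 pyrimidine synthesis genes 0 were called by limma, edgeR or DESeq2, with 1 lower at an unadjusted p. Of 17 purine synthesis genes, IMPDH1, which leads to guanine nucleotides, rose 1.23-fold while GMPS (1.17-fold) and PAICS (1.16-fold) fell, and the 6-library fit called 2 higher and 5 lower. With siDHX9, ADA, which deaminates adenosine and deoxyadenosine, fell 1.47-fold, while ITPA, which clears inosine triphosphate, rose 1.3-fold and PNP, a purine nucleoside phosphorylase, rose 1.17-fold. DHODH of pyrimidine synthesis fell 1.34-fold and GART of purine synthesis 1.22-fold, and IMPDH1 rose 1.21-fold. Without scrambled 1 and 2, 0 genes of these 3 lists were called with siDHX9. Without siDHX9 2, limma called 5 higher and 2 lower in the breakdown list and 3 higher and 3 lower in purine synthesis. In that fit 2284 of the 14225 genes were higher and 1971 lower.

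Of 25 genes of DNA replication and S phase entry, 17 fell with YK-4-279 and 0 rose, by limma, edgeR and DESeq2 alike, with 18 lower and 0 higher at an unadjusted limma p under 0.05. The median of the list was -0.44 on the log2 scale, beside 0.02 over all genes. Cyclin E2 (CCNE2) fell 2.12-fold, GINS1 and CDC45 of the replicative helicase 1.91-fold and 1.81-fold, and the helicase loader CDC6 1.75-fold. With siDHX9, 4 fell, among them the polymerase clamp PCNA (1.4-fold) and the clamp loaders RFC3 (1.3-fold) and RFC2 (1.22-fold), and 1 rose, CDC6 (1.29-fold). The siDHX9 median was -0.06, and without scrambled 1 and 2 there were 1 lower and 0 higher by limma, and without siDHX9 2 there were 8 lower and 1 higher. The share of ribosomal RNA moved with the same groups.

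Of 24 regulators of these genes, limma called 6 lower with YK-4-279, and edgeR and DESeq2 each 8. None of these tools called 1 higher, and 2 were higher at an unadjusted limma p under 0.05. E2F8, a repressor that is itself an S phase gene, was at 861 ± 59.2 in DMSO and 271 ± 25.3 with YK-4-279, 3.17-fold lower (limma adjusted p = 1.28e-06). CCNF, the cyclin F that marks RRM2 for breakdown, fell 1.83-fold, the pocket protein RBL1 1.52-fold and the activator E2F1 1.32-fold. With siDHX9, limma called 8 lower, edgeR 7 and DESeq2 10, and none of them called 1 higher, with 1 higher at an unadjusted limma p. The 8 included E2F7 (1.96-fold), RB1 (1.56-fold), RBL1 (1.49-fold) and E2F5 (1.47-fold). Without scrambled 1 and 2, 1 of the 24 was called lower with siDHX9, and in the fit of the 6 transfected libraries alone 0 were, while without siDHX9 2 limma called 11 lower and 2 higher.

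**Figure D4:**
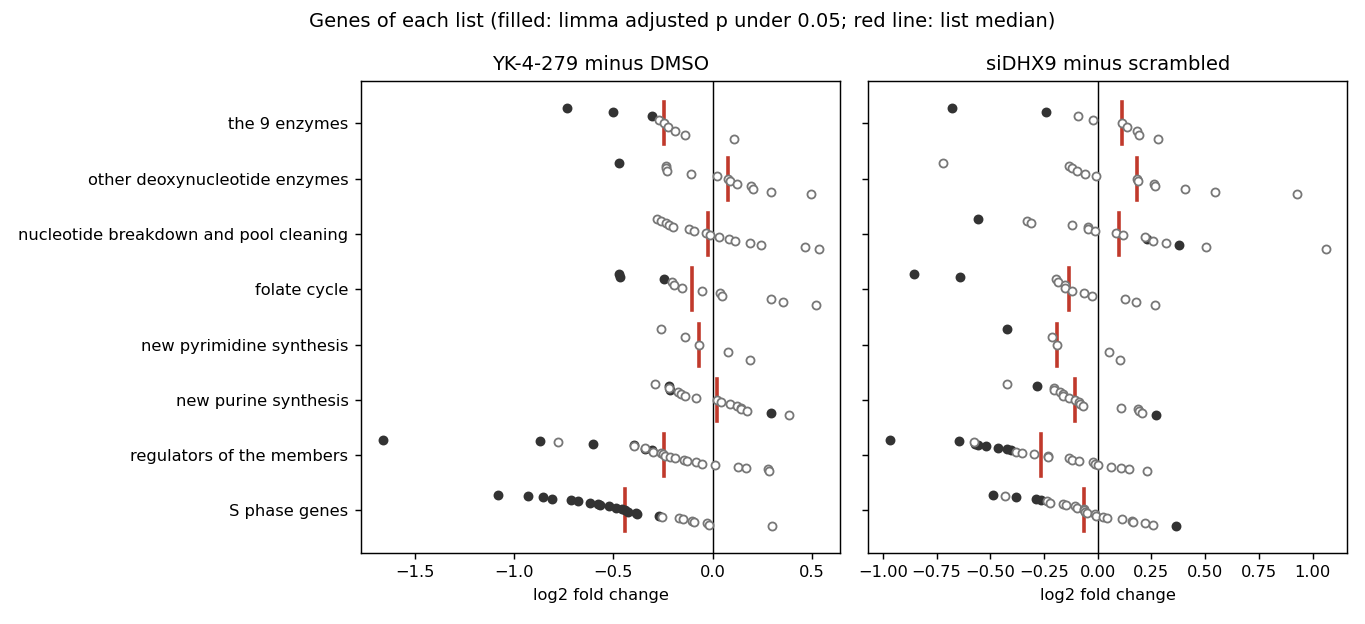
Log2 differences of the genes in each list for YK-4-279 minus DMSO and for siDHX9 minus scrambled. Each point is 1 gene, filled where it passed the test, the red line marks the list's median, and the panels have their own horizontal axes. The S phase genes have a median of -0.44 with YK-4-279 and -0.06 with siDHX9, and the 9 enzymes -0.24 and 0.11.

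The kept genes with a mean of at least 100 whose log2 values followed RRM2 most closely over the 12 libraries were ACYP1 (Pearson r = 0.98), MND1 (0.98), BEX4 (0.97), CENPP (0.97) and RBBP8 (0.97). For TYMS they were CDC6 (0.96), ZWINT (0.95), HAUS8 (0.93), TONSL (0.93) and NPFF (0.92), and for TK1 C19orf48 (0.93), COMMD4 (0.92), TIMM10 (0.91), PAXX (0.91) and PIDD1 (0.91). The 12 points are 4 groups of 3, so these values describe group differences as much as spread within groups. With 1 library left out, 3 to 5 of the RRM2 genes, 2 to 5 of the TYMS genes and 1 to 4 of the TK1 genes stayed among the 5 closest.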

How the data were processed

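The deposited table holds a signal value per entry and library, a read count normalised by the authors with DESeq size factors, per the file headers. FastQC, Picard, SAMtools, STAR 2.4.0, DESeq and hg19 are named per the submitters' processing notes, without order or settings. Divided by the step of its column, 100% of the low positive values checked were whole within 0.1. Higher values were not checked in this way. Depth bounds counting error only.

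Named entries with a mean of at least 10 (14225) were taken to log2(value + 1), so folds of low genes are understated, and fitted in limma 3.58.1 (R 4.3.3) over all 12 libraries with 1 mean per group and a mean-variance trend. Adjusted p-values are two-sided, Benjamini-Hochberg over 14225 genes, called under 0.05. Recovered reads went into edgeR 4.0.16 and DESeq2 1.42.0 as alternatives. Other alternatives were the added value, the minimum, TMM, the 6 libraries of a comparison, the replicate block and each library left out. The fit was tested on simulated data.

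The members and lists were chosen with earlier results of these data known. All 9 members, DHX9, partners, overlapping genes, up to 4 called genes per list with a group mean of at least 100 and the 5 closest genes are named. CHAC1 was named after its values were seen, and CMPK2 is named although its highest group mean was 41.6. NME1 and NME2 share 1 entry and were counted once. Some genes of the lists are not reported here by name.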

Additional observations from a re-analysis of the deposited data

Results flagged for a closer look

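For 2 enzymes the effect of YK-4-279 differed from that of siDHX9 in a test of the difference itself. For RRM2 the difference of the effects was -0.85 on the log2 scale (limma adjusted p = 0.00022, 3 libraries in each of 4 groups). For TYMS it was -0.44 (limma adjusted p = 0.0222). The RRM2 call held in each fit that was run and the TYMS call did not. The control groups of the 2 effects also differ in time and transfection, which cannot be told apart from the treatments.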

How the results depend on the processing

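RRM1 and RRM2 with YK-4-279, DUT with siDHX9 and the RRM2 difference of effects kept their direction and call in every fit run. With the 6 libraries of a comparison alone, YK-4-279 called 6 enzymes lower and 1945 genes lower and 2325 higher (923 and 1042 over all 12), and siDHX9 called 1 enzyme lower and 198 genes lower and 294 higher (1134 and 1244). Leaving out scrambled libraries 1 and 2 was chosen after seeing the data. The lone scrambled library is then assumed to vary like the other groups. It gave, for siDHX9, 1 enzyme lower, 204 genes lower and 265 higher and RRM2 at -0.043. For scrambled minus DMSO it gave 0 enzymes lower, 242 genes lower and 97 higher (1312 and 1380), DUT at 0.089 and DCK at 0.16. For the difference it gave 1 enzyme lower and 1 higher, 290 genes lower and 150 higher (753 and 626) and DCK at 0.0057. DESeq2 called 5 enzymes lower in the difference, where 1113 of all genes were lower and 968 higher. DCK in scrambled minus DMSO was 0.0029 in DESeq2 and 0.0074 in edgeR, against -0.02. Fewer samples enter the smaller fits, and the other causes were not tested.

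With each library left out in turn, the ranges were as follows. YK-4-279 called 2 to 4 enzymes lower, 482 to 1233 genes lower and 376 to 1593 higher. siDHX9 called 1 to 2 enzymes lower and 0 to 2 higher, 580.0 to 1971 genes lower and 657 to 2284 higher. Scrambled minus DMSO called 0 to 3 lower and 0 to 1 higher, 710.0 to 1693 genes lower and 690.0 to 1792 higher. The difference called 1 to 4 lower and 0 to 1 higher, 436 to 1008 genes lower and 315 to 917 higher. The log2 TK1 to TK2 difference with siDHX9 ran from -0.20 to 0.32. Small differences changed sign: DCK -0.33 to 0.049 and SAMHD1 -0.14 to 0.062 with siDHX9, RRM1 -0.031 to 0.015 and DCK -0.16 to 0.22 in scrambled minus DMSO, and DCK -0.32 to 0.058 and DCTD -0.15 to 0.013 in the difference. Over all alternatives, 712 of 783 fits of single enzymes kept direction and call, 28 lost a call, 27 gained one and 16 changed sign.

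TMM factors turned the YK-4-279 split of 1042 higher and 923 lower into 926 and 1072, and moved no comparison's median by 0.1 or more. Correlations of same-numbered deviations ran from -0.02 to 0.12, and values this low cannot settle whether replicate numbers pair the samples. With the replicate block, the enzymes called were 3 lower with YK-4-279 and 2 lower in each of the other comparisons, as without it, and genes called with YK-4-279 were 781 lower and 820.0 higher. Each siDHX9 library correlated best with the scrambled library of its own number (0.05 to 0.08), a hint from the data and not the design.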

Other observations

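Between the control groups, which share no treatment comparison of the study, 10 of 25 S phase genes were lower in scrambled than in DMSO and 0 higher by limma, edgeR and DESeq2, with 3 higher at an unadjusted limma p under 0.05. Among them CCNE2 fell 1.73-fold and PCNA 1.29-fold. Over all 14225 genes limma called 9.22% lower and 9.7% higher. Of the same genes edgeR called 1401 lower and 1375 higher, and DESeq2 1666 lower and 1721 higher. In the folate cycle MTHFD2 rose from 3797 ± 137 to 6504 ± 1303. UNG, which removes uracil from DNA, fell from 2853 ± 175 to 1972 ± 217. CMPK2, a mitochondrial nucleotide kinase at a low level, fell from 41.6 ± 4.07 to 9.28 ± 5.81. Without scrambled libraries 1 and 2, which carry the CHAC1 values given above, 0 of the S phase genes were called lower by limma, and the calls of MTHFD2 (log2 0.40, limma adjusted p = 0.104), UNG (-0.44, 0.0583) and CMPK2 (-1.32, 0.124) were lost too.

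An entry without a symbol that overlaps RRM2 (hg19 chromosome 2, 10261463 to 10271295) was at 143, 70.5 and 139 in DMSO, 53.0, 52.3 and 68.5 with YK-4-279, 104, 118 and 110 in scrambled and 103, 71.4 and 53.0 in siDHX9. All YK-4-279 libraries lay below all DMSO libraries. It was left out of the tests, as were all entries without a symbol.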
